A study of Mus musculus with 10 samples.

Results

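The semaphorin family of guidance ligands and their receptors, the plexins and neuropilins, were followed in RNA that was bound to ribosomes in cholinergic neurons of the striatum. The members were all gene symbols in the count tables that name a semaphorin of classes 3 to 7, a plexin, Nrp1 or Nrp2. This gave 31 of 32532 listed symbols, of which 20 were semaphorins, 9 were plexins and 2 were neuropilins. All mice were of the Chat-TRAP line DW167, with no age given in the labels. The line carries the ribosomal protein Rpl10a fused to EGFP for expression in Chat-positive cells, so every group, controls included, carries that transgene. Tagged polysomes were immunopurified from whole striatum after cocaine self-administration, from yoked controls and after saline self-administration, with 3 libraries each. A single input library held total RNA of saline self-administration striatum without purification. The labels do not say what the yoked animals received, or whether a library is 1 animal or a pool, so p values measure only the spread between these libraries.

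Semaphorins are secreted or membrane-bound proteins that steer axons during development and adjust synapses in the mature brain. Plexins are their main receptors and act through a GTPase-activating domain inside the cell, while neuropilins bind the secreted class 3 ligands and signal together with plexins of the A group. In the mouse striatum, Sema3e and its receptor Plxnd1 are known for setting the specificity of thalamic synapses on spiny neurons of the direct pathway.

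Gene counts per immunopurified library ranged from 24526765 to 75220923, and the input held 40912230. Chat, the enzyme that makes acetylcholine, averaged 550 ± 65.1 CPM (CPM is a gene's count scaled to the summed gene counts of its library; SD, n = 3) in saline immunopurified libraries and 10.1 CPM in the input. All 12 cholinergic markers were at least 2-fold above the input in the 3 saline libraries. The purification left RNA of other cells behind: summed CPM of 13 spiny projection neuron markers was 916 to 2074 in saline immunopurified libraries and 11495 in the input, and that of 10 oligodendrocyte markers was 238 to 533 against 3023. The saline libraries carry lane number 3, the cocaine and yoked libraries 4 and the input 5. Lane and treatment cannot be told apart wherever saline libraries are compared with cocaine or yoked libraries. The input is saline RNA too, so in saline ratios to it lane and purification cannot be told apart. Treatment differs as well in the ratios of cocaine and yoked libraries.

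The sequences in front of 3 members are shown because these were the members at least 2-fold above the input in all 9 immunopurified libraries. Each is the 250 bases before a start site that RefSeq lists for the gene on the plus strand of GRCm38.p6, 5′ to 3′. For Sema6c that start is the outer end of the annotated gene, while the annotated genes of Sema4g and Plxna3 begin further upstream, at positions 44988743 and 74328290, so their windows lie within the gene bounds. Capitals mark the GC box GGGCGG on either strand.
Sema6c, chr3:95160170-95160419: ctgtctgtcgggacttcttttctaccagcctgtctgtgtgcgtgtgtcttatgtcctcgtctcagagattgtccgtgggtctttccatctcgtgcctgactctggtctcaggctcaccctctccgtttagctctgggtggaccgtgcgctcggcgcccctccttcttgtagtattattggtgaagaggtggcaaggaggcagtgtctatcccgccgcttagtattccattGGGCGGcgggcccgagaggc
Sema4g, chr19:44989094-44989343: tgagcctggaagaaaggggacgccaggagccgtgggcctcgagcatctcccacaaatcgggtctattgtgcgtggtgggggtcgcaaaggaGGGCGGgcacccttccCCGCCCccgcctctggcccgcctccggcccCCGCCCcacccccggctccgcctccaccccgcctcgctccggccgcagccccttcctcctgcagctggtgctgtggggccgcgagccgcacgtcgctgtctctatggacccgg
Plxna3, chrX:74328816-74329065: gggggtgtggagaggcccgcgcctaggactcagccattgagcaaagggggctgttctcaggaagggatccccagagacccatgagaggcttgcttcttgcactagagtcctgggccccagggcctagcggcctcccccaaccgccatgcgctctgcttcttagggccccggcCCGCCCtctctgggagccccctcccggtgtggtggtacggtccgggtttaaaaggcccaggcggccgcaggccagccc
The GC box stood 1 time before Sema6c, 3 times before Sema4g and 1 time before Plxna3, and 32.7% of 32851 windows of this length held it. The letters TAATTA, a core bound by LIM homeodomain factors, and the TATA box letters TATAAA, each searched on both strands, were in none of the 3 windows, against 4.84% and 12.4% of all windows. The CCAAT box, also searched on both strands, occurred 2 times before Sema6c and in 33.8% of all windows. In the Sema6c window it reads as the reverse complement ATTGG each time. Sema6c has 2 annotated starts, of which the one at the gene's outer end is shown.

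The question put to the input was which members the cholinergic ribosomes hold above or below whole striatum. Sema6c, Sema4g and Plxna3 were at least 2-fold higher in all 3 saline immunopurified libraries than in the input, and 12 members were at least 2-fold lower. The lower members took in both neuropilins, both class 5 semaphorins and 3 class 3 semaphorins. Of 30 members with at least 20 counts in the input or in the mean saline library, 10% were on the high side and 40% on the low side. Over all 15888 genes kept by that filter, the shares were 12.2% and 23.1%. Without the 2-fold limit, 8 members were above the input in all 3 saline libraries and 17 below, and 35.8% and 44.9% of all genes were. The median log2 ratio was −1.13 over the members and −0.032 over all genes. The ratio sets ribosome-bound RNA of tagged cells against total RNA of the tissue. The number of cells holding a transcript, its level per cell, its ribosome loading and a difference in lane therefore cannot be told apart. The input has no replicate, so the SD of a ratio covers the immunopurified libraries alone and no p was computed.

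**Figure D1:**
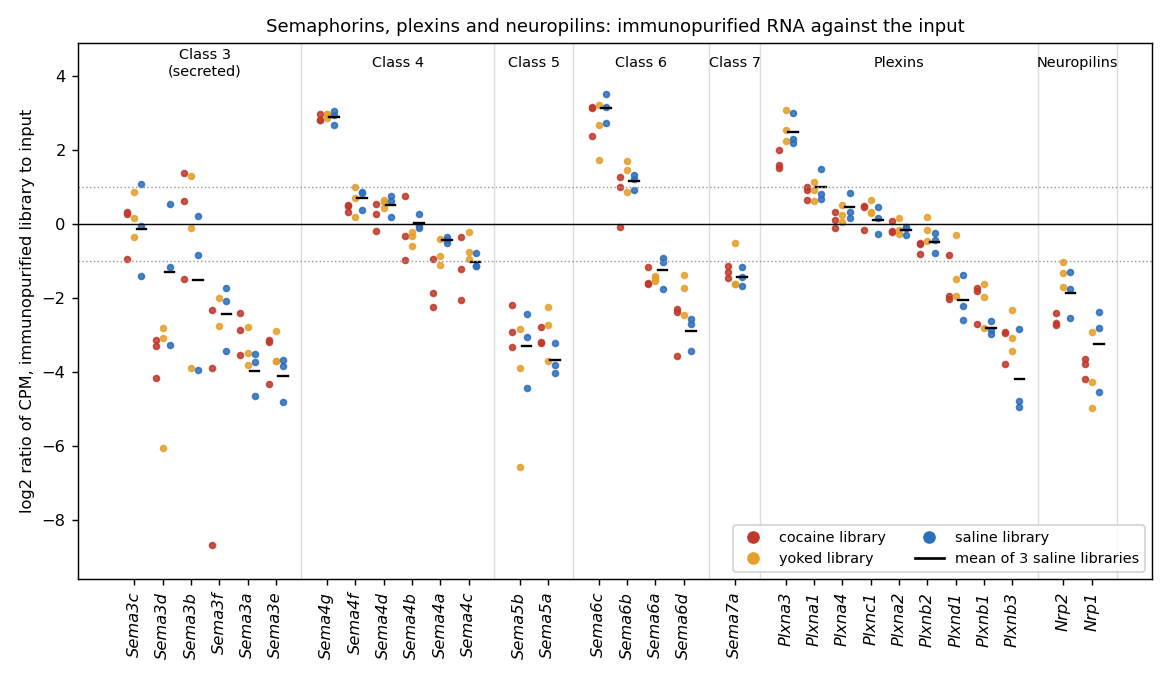
The log2 ratio of CPM in each immunopurified library to the single input library is plotted for the 30 members kept, with cocaine, yoked and saline libraries as points, the mean of the 3 saline libraries as a bar and dotted lines at 2-fold. A library with 0 counts (Sema3f in yoked library 2) has no point, and Sema6c, Sema4g and Plxna3 stand above the upper dotted line in all 9 libraries.

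Among the ligands, Sema6c, a transmembrane semaphorin of class 6, measured 15.9, 27.1 and 21.3 CPM in saline immunopurified libraries 1 to 3, against 2.40 CPM in the input. The mean log2 ratio was 3.13 ± 0.39 (SD, n = 3), or 8.74-fold. The input value rests on 98 counts, and the 95% counting interval of the ratio of summed counts was 7.41 to 11.2 (exact binomial, counting error only). Sema4g, a transmembrane ligand that binds Plxnb2 in mice, measured 61.0, 78.9 and 73.4 CPM, against 9.48 CPM in the input, with a log2 ratio of 2.898 ± 0.19. Its 9 immunopurified libraries lay within 2.68 to 3.06 on this log2 scale, with no separation of the treatment groups.

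Plxna3 was the receptor subunit with the highest ratio. It pairs with Nrp2 in the receptor for the secreted ligand Sema3f. Plxna3 measured 15.7, 27.6 and 17.0 CPM in saline immunopurified libraries 1 to 3, against 3.47 CPM in the input from 142 counts. Its log2 ratio was 2.49 ± 0.44 (SD, n = 3), and the 95% counting interval of the ratio of summed counts was 4.86 to 6.89. Against the same input, the mean log2 ratio was 1.70 ± 0.25 after cocaine and 2.62 ± 0.42 in yoked controls (SD, n = 3 each).

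**Figure D2:**
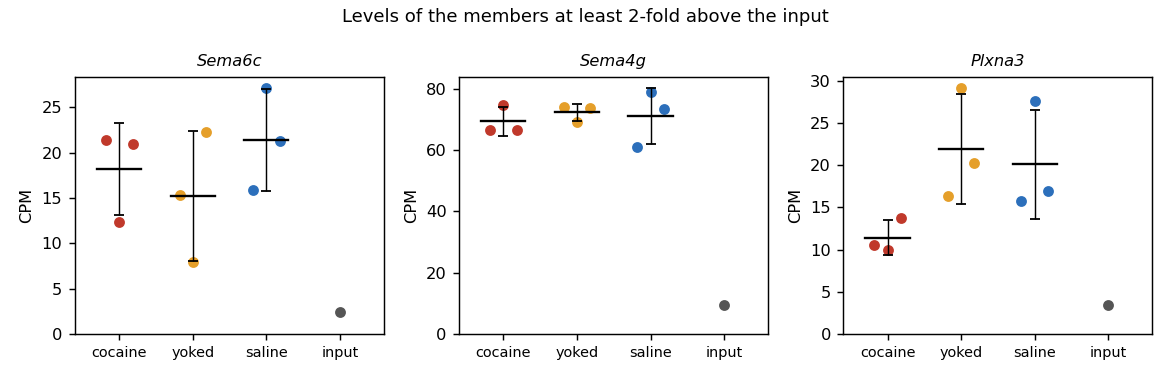
CPM of Sema6c, Sema4g and Plxna3 is plotted per library, with points for libraries and bars for mean ± SD over 3 libraries (the input is 1 library). The immunopurified libraries exceed the input for all 3 genes, and the 3 Plxna3 values of the cocaine group (9.92 to 13.8 CPM) lie below all yoked and saline values.

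The other A plexins, which transmit signals of class 3 and class 6 semaphorins, did not reach 2-fold in all 3 saline libraries. Plxna1 had a log2 ratio of 0.99 ± 0.44 and Plxna4, the partner of Nrp1 in the Sema3a receptor, 0.45 ± 0.35 (SD, n = 3). Plxna2, a receptor of Sema6a, had −0.16 ± 0.12, with 161, 189 and 183 CPM in saline immunopurified libraries and 199 CPM in the input. The 4 A plexins thus spanned ratios from −0.16 to 2.49, with Plxna3 alone past 2-fold in each saline library.

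The B plexins, the receptors of class 4 semaphorins, lay below the input in all 3 saline libraries. Plxnb1, the receptor of Sema4d, measured 3.16, 2.51 and 2.68 CPM in saline immunopurified libraries against 19.6 CPM in the input, a log2 ratio of −2.82 ± 0.17. Plxnb3, a receptor of Sema5a, measured 1.84, 0.477 and 0.428 CPM against 13.2 CPM, a log2 ratio of −4.19 ± 1.17 and the lowest among the members. Plxnb2 stayed within 2-fold, at −0.49 ± 0.27. Plxnd1, the direct receptor of Sema3e, measured 14.4, 6.24 and 8.05 CPM against 37.4 CPM, a log2 ratio of −2.06 ± 0.62. It stood less far below the input in some other libraries: 7 of 9 immunopurified libraries were at least 2-fold below, and yoked library 3 held 30.6 CPM. Plxnc1, the receptor of Sema7a, was near the input, with a log2 ratio of 0.11 ± 0.36 and libraries on both sides of it.

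Both neuropilins were lower than in the input. Nrp1, the co-receptor of Sema3a, measured 2.07, 2.77 and 0.618 CPM in saline immunopurified libraries against 14.4 CPM in the input, a log2 ratio of −3.24 ± 1.15. Nrp2, the co-receptor of Sema3f, measured 3.44, 2.005 and 4.70 CPM against 11.6 CPM, a log2 ratio of −1.87 ± 0.62. All 9 immunopurified libraries were at least 2-fold below the input for each.

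Of the secreted class 3 ligands, none was 2-fold higher in all 3 saline libraries. Sema3a, a repellent of axons, measured 4.53, 3.95 and 2.09 CPM in saline immunopurified libraries against 52.2 CPM in the input, a log2 ratio of −3.96 ± 0.60. Sema3e measured 3.24, 1.46 and 2.85 CPM against 41.1 CPM, a log2 ratio of −4.11 ± 0.62. Sema3f measured 1.29, 1.62 and 0.499 CPM against 5.43 CPM, a log2 ratio of −2.42 ± 0.90. These 3 ligands were at least 2-fold below the input in every one of the 9 immunopurified libraries, with 0 counts of Sema3f in yoked library 2. Sema3c, which signals through both neuropilins, varied around the input, with 1.80, 4.55 and 10.02 CPM in saline immunopurified libraries against 4.74 CPM. Sema3b likewise had saline libraries on both sides of the input and rested on 20 input counts. Sema3d was above the input in saline library 2 alone, and 8 of 9 immunopurified libraries were at least 2-fold below it. Sema3g had 0 counts in the input, which allows up to 0.0733 CPM (3 counts), and at most 0.339 CPM in any immunopurified library, so it entered no comparison.

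The class 5 semaphorins, membrane proteins with thrombospondin repeats, were both lower. Sema5a measured 4.96, 4.26 and 7.41 CPM in saline immunopurified libraries against 69.4 CPM in the input, a log2 ratio of −3.69 ± 0.41. Sema5b measured 0.859, 2.26 and 3.47 CPM against 18.6 CPM, a log2 ratio of −3.30 ± 1.03. Class 6 divided: Sema6b, a ligand of Plxna4, had a log2 ratio of 1.16 ± 0.21 with 1 saline library just under 2-fold, at 0.93. Sema6d, a ligand of Plxna1, measured 15.2, 9.13 and 16.8 CPM against 99.3 CPM, a log2 ratio of −2.904 ± 0.47. Sema6a, a ligand of Plxna2 and Plxna4, had −1.24 ± 0.46 with 1 saline library just inside 2-fold, at −0.92.

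Sema7a, the membrane-anchored ligand of Plxnc1 and integrins, measured 21.2, 17.9 and 25.9 CPM in saline immunopurified libraries against 57.4 CPM in the input, a log2 ratio of −1.43 ± 0.27. Apart from Sema4g, the class 4 semaphorins stayed under 2-fold in at least 1 saline library. Sema4f and Sema4d, the ligand of Plxnb1, had log2 ratios of 0.69 ± 0.27 and 0.52 ± 0.30. Sema4b stood at 0.039 ± 0.21, Sema4a at −0.43 ± 0.073 and Sema4c at −1.02 ± 0.21.

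Marker lists of other cell types give a scale for the low ratios. The median log2 ratio was −3.04 over spiny projection neuron, −3.39 over oligodendrocyte, −3.26 over astrocyte and −4.39 over cortical glutamatergic markers. It was −3.83 over other striatal interneuron, −3.68 over microglia, −4.04 over endothelial and mural and −3.04 over oligodendrocyte precursor markers. Over cholinergic markers it was 5.27. Of 4 oligodendrocyte precursor markers, 3 were at least 2-fold lower than the input in all 3 saline libraries and 1 was at least 2-fold higher. Their summed CPM, 63.4 to 76.3 in saline immunopurified libraries against 94.8 in the input, therefore mixes both directions. Endothelial and mural markers summed to 13.6 to 19.2 CPM against 28.9 CPM. Nrp1, Sema5b, Sema5a, Sema3a, Sema3e and Plxnb3, from −3.24 to −4.19, lay between the spiny and the cortical marker medians. The part of RNA carried over from other cells in their levels was not tested.

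Genes that work with plexins were followed from lists of 14 co-receptors and 36 intracellular partners. Of 13 co-receptors kept, 1 was at least 2-fold higher and 6 were at least 2-fold lower than the input in all 3 saline libraries. Of 34 intracellular partners kept, 5 were higher and 3 lower. The shares of all genes were 12.2% higher and 23.1% lower. The highest ratios belonged to Itga1, an integrin subunit (log2 ratio 2.32 ± 0.85), Limk1, the kinase that inactivates cofilin (1.81 ± 0.10), and Dpysl3, a CRMP protein of semaphorin signalling (1.68 ± 0.33). Ranked by summed counts, the lowest were Kdr, a VEGF receptor (0.0472 ± 0.0415 CPM in saline immunopurified libraries against 1.71 CPM in the input), Sh3bp1, a GTPase-activating protein (0.367 ± 0.300 against 4.79 CPM), and Met, a receptor kinase that couples to B plexins (0.251 ± 0.240 against 2.62 CPM).

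Cocaine self-administration was compared with yoked controls, which carry the same lane number. At an adjusted p under 0.05, edgeR's quasi-likelihood test with Benjamini-Hochberg adjustment found 0 of 30 members and 0 of 14989 genes (0%), and DESeq2 and limma voom also called 0. Plxna3 measured 10.5, 9.92 and 13.8 CPM in cocaine libraries 1 to 3, against 16.4, 29.2 and 20.2 CPM in yoked libraries 1 to 3. All 3 cocaine libraries lay below all 3 yoked libraries. The log2 fold change was −0.90 ± 0.28 (SE; 95% interval −1.502 to −0.30; edgeR adjusted p = 0.9997), at rank 13 among all genes ordered by p. Plxna3 was singled out with this result known, so this rank is a description.

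Leaving out yoked library 2, the highest, gave a log2 fold change of −0.68 for Plxna3, and leaving out the 3 libraries numbered 2 gave −0.62. Within the libraries numbered 1, 2 and 3 the cocaine minus yoked difference was −0.64, −1.56 and −0.56 on the log2 scale. The other A plexins had fold changes near 0 in this comparison: 0.0036 for Plxna1 (95% interval −0.47 to 0.48), 0.017 for Plxna2 (−0.34 to 0.37) and −0.12 for Plxna4 (−0.54 to 0.30).

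Nrp2, which pairs with Plxna3, measured 2.20, 1.77 and 1.83 CPM in cocaine libraries, against 4.66, 3.56 and 5.71 CPM in yoked libraries. Its groups did not overlap either, and its log2 fold change was −1.24 ± 0.49 (SE; 95% interval −2.28 to −0.20; edgeR adjusted p = 0.9997). For cocaine against saline, the Nrp2 groups overlapped, with a log2 fold change of −0.80 (95% interval −1.84 to 0.24). Sema6d measured 20.1, 8.38 and 19.3 CPM in cocaine libraries, against 18.02, 38.1 and 29.99 CPM in yoked libraries, with a log2 fold change of −0.82 ± 0.35 (SE). The Sema6d groups overlapped, and without the 3 libraries numbered 2 the value was −0.31. Nrp2 and Sema6d were each at least 2-fold below the input in all 9 immunopurified libraries. Summed CPM of spiny projection neuron markers was 1053 to 1877 in cocaine and 1311 to 1631 in yoked libraries. That of oligodendrocyte markers was 322 to 578 and 333 to 514. The part of such RNA in the Nrp2 and Sema6d values was not tested.

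Across the family, 4 of 30 members had an unadjusted p under 0.05 against yoked, all with lower cocaine values. Over all genes this share was 2.61%, of which 1.63% were higher and 0.974% lower. The members' count rested on single libraries: it was 1 without yoked library 3, and 2 without cocaine library 2, without yoked library 2 or under limma voom. In the main fit, the 4 members were Plxna3, Nrp2, Sema6d and Sema4a. Groups did not overlap for 3 of 30 members, each lower after cocaine (Plxna3, Nrp2 and Plxnb2), and for 6.78% of all genes, 3.42% above and 3.37% below. Plxna3 is in both counts of members and was singled out with its result known, so these counts and their direction are descriptions. Of the members, 21 had a negative and 9 a positive fold change, while 50.2% of all genes were above 0, and the median was −0.12 against 0.0011 over all genes. That split depended on yoked library 3: without it, 13 were negative and 17 positive. Other processing choices and left-out libraries gave 20 to 24 negative members.

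**Figure D3:**
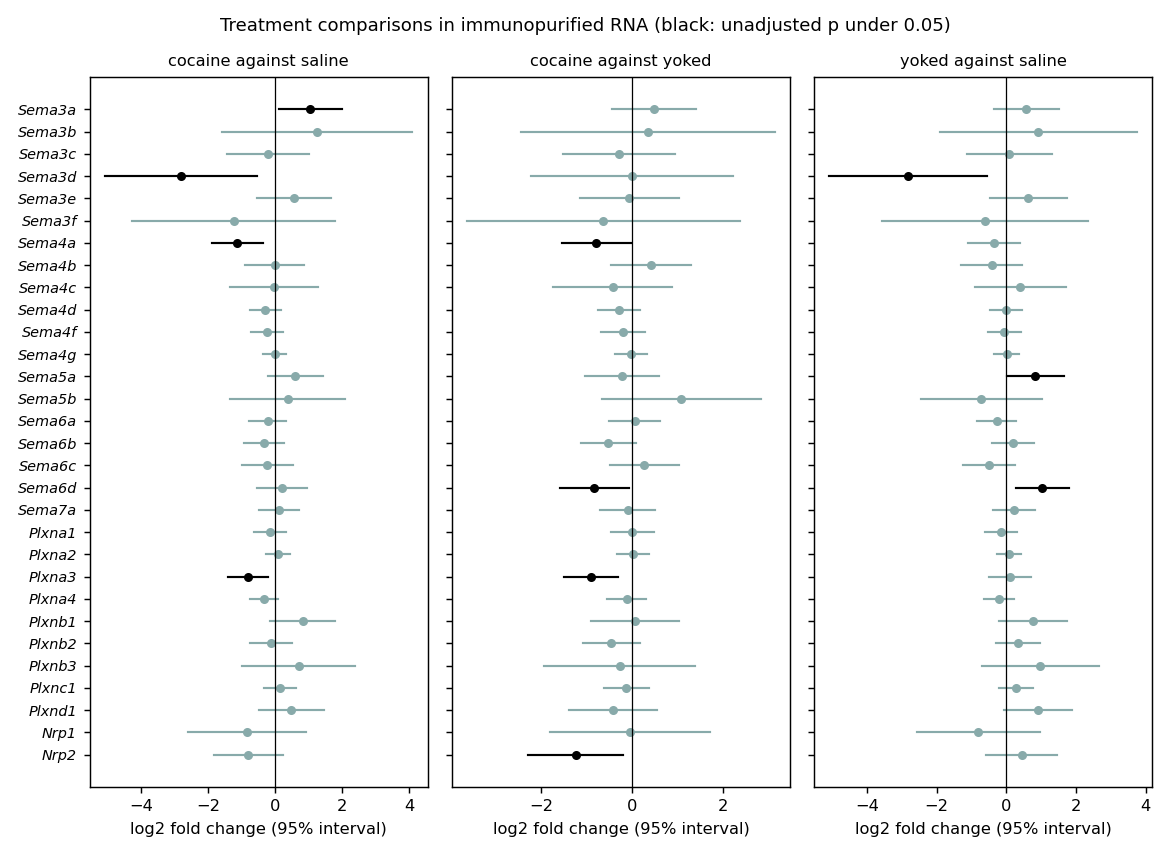
Log2 fold changes (points) with 95% intervals (lines) from edgeR are shown for the 30 tested members in the 3 treatment comparisons, in black where the unadjusted p is under 0.05. No member passed the adjusted threshold in any panel, and the intervals of low-count members such as Sema3f and Sema3b are the widest.

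Cocaine against saline self-administration asked which members differ after drug taking, with lane and group confounded. edgeR called 0 of 30 members and 0 of 14989 genes (0%), with 791 genes at an unadjusted p under 0.05, and DESeq2 and limma voom also called 0. Sema4a, a transmembrane ligand of B plexins and Plxnd1 known from immune and vascular cells, measured 3.02, 3.95 and 7.39 CPM in cocaine libraries, against 10.6, 11.1 and 10.1 CPM in saline libraries. All cocaine values lay below the narrow saline range. The log2 fold change was −1.14 ± 0.36 (SE; 95% interval −1.90 to −0.38; edgeR adjusted p = 0.850). Yoked libraries measured 6.58, 10.9 and 7.86 CPM, and against these the log2 fold change was −0.78 ± 0.35, with overlapping groups.

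Plxna3 in the same cocaine libraries lay below all saline libraries (15.7, 27.6 and 17.0 CPM), with a log2 fold change of −0.80 ± 0.28 (SE; 95% interval −1.40 to −0.20; edgeR adjusted p = 0.850). Both comparisons use the same cocaine libraries, so they are not independent. Saline library 2 was the highest: without it the value was −0.52, and without the 3 libraries numbered 2 it was −0.44. Sema3d measured 0.245, 0.492 and 0.441 CPM in cocaine libraries, against 1.95, 6.30 and 0.451 CPM in saline libraries, with a log2 fold change of −2.82 ± 1.06 (SE). Saline library 2 set much of it, as the value without that library was −1.56. The Sema3d values of the cocaine libraries rest on 6, 37 and 13 counts.

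Sema3a stood on the other side, with 9.87, 7.11 and 4.51 CPM in cocaine libraries, against 4.53, 3.95 and 2.09 CPM in saline libraries. Its groups overlapped by a narrow margin, and the log2 fold change was 1.05 ± 0.44 (SE; edgeR adjusted p = 0.850). In all, 4 of 30 members (Sema4a, Plxna3 and Sema3d lower, Sema3a higher) had an unadjusted p under 0.05, and 5.28% of all genes did, 2.76% higher and 2.52% lower. Groups did not overlap for 3 of 30 members, namely Sema4a and Plxna3 below and Sema5a above saline, and for 10.3% of all genes, 4.88% above and 5.40% below. Without cocaine library 1 the count at an unadjusted p under 0.05 was 2. It was 5 without saline library 1, without cocaine library 3 or under limma voom. Fold changes were negative for 18 and positive for 12 members (14 and 16 without cocaine library 1, 15 and 15 without saline library 3), while 50.6% of all genes were above 0, and the median was −0.079 against 0.0049 over all genes. Summed CPM of spiny projection neuron markers was 1053 to 1877 in cocaine and 916 to 2074 in saline libraries, and that of oligodendrocyte markers 322 to 578 and 238 to 533. The part of such RNA in the Sema3a and Sema5a values was not tested.

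**Figure D4:**
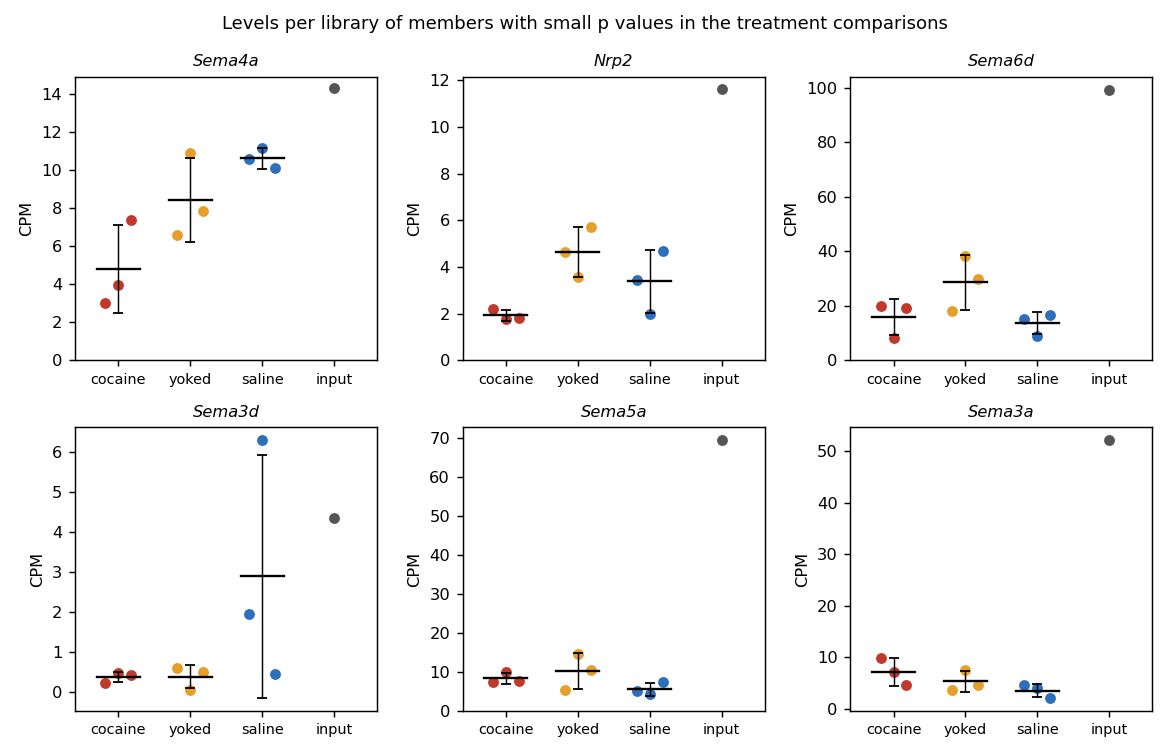
CPM per library is plotted for Sema4a, Nrp2, Sema6d, Sema3d, Sema5a and Sema3a, with bars for mean ± SD over 3 libraries. The 3 cocaine values of Sema4a (3.02 to 7.39 CPM) lie below the saline values, those of Nrp2 (1.77 to 2.20 CPM) lie below the yoked values, and 1 saline library of Sema3d stands at 6.30 CPM.

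Yoked controls against saline self-administration was the remaining comparison, again with lane and group confounded. edgeR called 0 of 30 members and 0 of 14989 genes (0%), with 327 genes at an unadjusted p under 0.05, and DESeq2 and limma voom also called 0. Sema6d measured 18.02, 38.1 and 29.99 CPM in yoked libraries, against 15.2, 9.13 and 16.8 CPM in saline libraries, so all yoked libraries lay above. The log2 fold change was 1.03 ± 0.35 (SE; 95% interval 0.27 to 1.78; edgeR adjusted p = 0.999), and 0.59 without the 3 libraries numbered 2. This comparison and that of cocaine against yoked use the same yoked libraries, so they are not independent. For cocaine against saline, the Sema6d groups overlapped and the log2 fold change was 0.21 (95% interval −0.54 to 0.96).

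Sema3d measured 0.618, 0.0659 and 0.510 CPM in yoked libraries, from 34, 2 and 14 counts, against the 3 saline values given above. Its log2 fold change was −2.82 ± 1.06 (SE), and −1.56 without saline library 2. Sema5a measured 5.37, 14.6 and 10.5 CPM in yoked libraries, against 4.96, 4.26 and 7.41 CPM in saline libraries, with overlapping groups and a log2 fold change of 0.83 ± 0.38. Without yoked library 2 the Sema5a value was 0.53. Plxna3 did not differ beyond its spread here, at 0.10 (95% interval −0.49 to 0.69), and its sign turned when saline library 1 or yoked library 2 was left out. In all, 3 of 30 members (Sema6d, Sema3d and Sema5a) had an unadjusted p under 0.05, and 2.18% of all genes did, 1.38% higher and 0.801% lower. This count was 0 of 30 without saline library 2, and 1 under limma voom or with a replicate block. It was 4 under DESeq2 or without saline library 1. Groups did not overlap for 2 of 30 members, Sema6d above and Sema4b below (7.11, 5.43 and 6.59 CPM in yoked libraries against 7.54, 7.96 and 9.93 CPM in saline libraries), and for 7.05% of all genes, 4.30% above and 2.74% below. Fold changes were positive for 18 and negative for 12 members, while 47.9% of all genes were above 0. The members' split was 15 and 15 without yoked library 3, and 14 and 16 without saline library 1. It was 22 and 8 without the 3 libraries numbered 2. The median fold change of the members was 0.086 against −0.014 over all genes. Summed CPM of spiny projection neuron markers was 1311 to 1631 (median 1576) in yoked and 916 to 2074 (median 1116) in saline libraries. That of oligodendrocyte markers was 333 to 514 (median 451) and 238 to 533 (median 265). The part of such RNA in the Sema6d and Sema5a values was not tested.

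The 2 ligands with the highest ratios to the input showed narrow or overlapping treatment groups. Sema4g averaged 69.4 ± 4.69 CPM after cocaine, 72.4 ± 2.75 CPM in yoked and 71.1 ± 9.18 CPM in saline libraries (SD, n = 3). Its log2 fold change was −0.025 (95% interval −0.38 to 0.33) for cocaine against yoked and −0.016 (−0.37 to 0.34) for cocaine against saline. Sema6c averaged 18.2 ± 5.09, 15.2 ± 7.19 and 21.4 ± 5.61 CPM in cocaine, yoked and saline libraries, with intervals of −0.48 to 1.03 against yoked and −0.98 to 0.53 against saline. Over the 30 members, the 95% interval of the fold change reached a median of 0.78 on the log2 scale to each side for cocaine against yoked, from 0.35 to 2.99.

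No gene of the co-receptor and intracellular partner lists passed in any treatment comparison. Against yoked, 2 of 35 tested intracellular partners had an unadjusted p under 0.05, both higher after cocaine, and 1 of 11 co-receptors, Met, whose 6 to 269 counts in cocaine libraries stood against 1 to 13 counts in yoked libraries. Over all genes this share was 2.61%. Groups did not overlap for 4 of 35 intracellular partners and 0 of 11 co-receptors, and for 6.78% of all genes. Arhgef11, which B plexins bind inside the cell, measured 91.5, 240 and 106 CPM in cocaine libraries, against 77.2, 79.3 and 88.8 CPM in yoked and 65.0, 77.6 and 92.6 CPM in saline libraries. Cocaine library 2 stood far above the others, and the log2 fold change was 0.89 ± 0.31 against yoked and 0.93 ± 0.31 against saline (SE; edgeR adjusted p = 0.9997 and 0.850). Mical2, an oxidoreductase that disassembles actin, showed the same library on top, with 127, 230 and 122 CPM in cocaine libraries and 122, 101 and 112 CPM in yoked libraries. Against saline, 4 of 35 intracellular partners had an unadjusted p under 0.05 (Arhgef11 and Rhod higher, Dpysl3 and Dpysl2 lower) and 0 of 11 co-receptors, beside 5.28% of all genes. Groups did not overlap for 8 of 35 intracellular partners and 1 of 11 co-receptors, beside 10.3% of all genes. Dpysl3 measured 95.2, 70.1 and 98.0 CPM in cocaine libraries, against 103, 157 and 110.0 CPM in saline libraries. All its cocaine values lay below the saline values, with a log2 fold change of −0.48 ± 0.19 (SE). For yoked against saline, 2 of 35 intracellular partners (Ranbp9 and Rhod) and 0 of 11 co-receptors had an unadjusted p under 0.05, beside 2.18% of all genes. Ranbp9, a scaffold protein, measured 81.7, 83.8 and 85.02 CPM in yoked libraries, against 104, 133 and 101 CPM in saline libraries. Its groups did not overlap, and it stood at −0.45 ± 0.17 on the log2 fold change scale (SE). Rhod, a binding partner of plexins, rested on 47, 12 and 2 counts in yoked libraries and 2, 0 and 2 counts in saline libraries.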

How the data were processed

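The authors deposited raw read counts per gene symbol for 10 libraries; per the submitters' processing notes, STAR 2.0.0e, HTSeq and the mm10 build were used. The annotation, strand setting and filters are not given in the sources used here, so reads of overlapping antisense genes cannot be told apart. The 5 rows that name no gene held 47.6% to 67.4% of reads in immunopurified libraries and 55.1% in the input, and were left out. CPM was computed from the summed gene counts. Treatment groups were compared with edgeR 4.0.16 in R 4.3.3 (quasi-likelihood F-test, TMM scaling, filterByExpr with a minimum count of 10 and total of 15), with all 9 immunopurified libraries in 1 fit and Benjamini-Hochberg adjustment over 14989 genes; printed CPM carry no TMM scaling. The input ratio kept genes with at least 20 counts on either side, without a test. DESeq2 1.42.0, limma 3.58.1, other filters and scalings, a replicate block and left-out libraries were tried. The fits were tested on simulated data.

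Library values are given for Plxna3, for the 3 members with the smallest p in each comparison, for members past 2-fold against the input, and for the 2 partner genes with the smallest p in each treatment comparison. Library values of Sema3c, Sema4b and Plxna2, single values of other members, and the treatment counts of Met fall outside this rule and were chosen after they were seen. The members and lists were chosen with earlier results of these data known. Intervals on ratios cover counting error only.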

Additional observations from a re-analysis of the deposited data

How the results depend on the processing

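No member was called in any treatment comparison under any of the 16 or 17 alternatives. Without a filter on low counts, edgeR called 60 genes between cocaine and saline libraries, 27 between cocaine and yoked libraries and 18 between yoked and saline libraries, with no member among these genes. Plxna3 for cocaine against yoked kept its sign throughout, from −1.06 to −0.62 (log2), with edgeR, DESeq2 or limma adjusted p between 0.347 and 0.99996, and from −1.06 to −0.68 when 1 library was left out. Plxna3 for yoked against saline ran from −0.10 to 0.38 when 1 library was left out, and its sign turned without saline library 1 (−0.052) and without yoked library 2 (−0.10).

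Members at least 2-fold above the input numbered 3 to 4, and those below numbered 12, except 8 at 4-fold and 15 without saline library 2. The median ratio over all genes was 0.060 under TMM and −0.032 in the main scaling. With the replicate number as a replicate block, the Plxna3 log2 fold change for cocaine against yoked was −0.86 (edgeR adjusted p = 0.933) and 0 members were called in each comparison. Same-numbered libraries correlated at 0.078 to 0.179 in their deviations, over 0.1 in 8 of 9 pairs, and different numbers at −0.155 to 0.059. Each library correlated best with its own number in 18 of 18 combinations, a hint from the data and not the design. The deviations are from the mean of each group, so high same-number correlations push the others down and the 18 combinations are not independent. Depth limits members with few counts, such as Sema3b, Sema3d, Sema3f and Sema3g.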
